A study of Mus musculus with 16 samples.

Results

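The amino acid transporter genes described here are the 62 genes of the expression table whose symbols place them in the Slc1, Slc3, Slc6, Slc7, Slc36, Slc38 or Slc43 families, out of 25965 genes listed. They comprised 7 Slc1, 2 Slc3, 19 Slc6, 16 Slc7, 4 Slc36, 11 Slc38 and 3 Slc43 genes. The symbol rule also takes in Slc7a6os, which lies next to Slc7a6 on the opposite strand and is not a transporter, and Slc6 carriers whose cargo is not an amino acid, such as Slc6a4 for serotonin and Slc6a8 for creatine.

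The oocytes came from wild-type C57BL/6 mice (C57BL/6Babr in the methods of the study), without any treatment, and were sorted by diameter. Strand-specific RNA-seq libraries were made in duplicate, A and B, from oocytes of 10–30 μm (mice 5 to 7 days old), 40–45 μm (7 to 10 days), 50–55 μm (10 to 15 days) and 60–65 μm (12 to 18 days), and germinal vesicle (GV) oocytes, which are fully grown (20 to 21 days), had 1 column of values. The study's own sources differ slightly in these ages, so that diameter is used throughout. DNA methylation was measured by RRBS in duplicate in the classes from 40–45 μm upwards and by PBAT in 1 library at 60–65 μm. Each library pooled oocytes, diameter and age of the mice rose together and cannot be told apart, and nothing states whether A and B came from separate mice, so that the p-values measure the spread between these pools.

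A growing oocyte stores protein and RNA for the embryo and is coupled to granulosa cells, which hand it some of the amino acids it does not take up itself. Slc6a9, the glycine carrier GLYT1, is known in oocytes and early embryos for bringing in glycine as an osmolyte that keeps cell volume. Slc7 light chains such as Slc7a5 and Slc7a11 reach the membrane as partners of the heavy chain Slc3a2, whereas Slc36 and several Slc38 proteins work on lysosomes, where amino acids are reported to the growth kinase mTORC1.

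Levels are given in RPKM, a read number divided by the exon length and by the size of the library, and compare genes per length of mRNA within a library. RPKM is a share of the library, so that RNA per oocyte was not measured and fewer expressing cells cannot be told apart from less RNA per cell. A read in 1 kb of exon was worth 0.00524 to 0.0101 RPKM in the growing libraries and 0.00503 in GV, as the steps between low values show. The 12 oocyte markers summed to 2510 to 3480 RPKM and all reached 0.5 RPKM. Markers of other ovarian cells were present at low levels: 12 granulosa markers summed to 12.7 and 14.4 RPKM at 10–30 μm and to 21.7 and 19.7 at 60–65 μm, of which Serpine2 held 10.6 to 14.0 over all libraries. Nr5a2 went from 1.29 and 1.73 to 4.81 and 4.6, Cyp19a1 from 0.161 and 0.159 to 1.25 and 1.04, and Fshr from 0.0436 and 0.0545 to 0.238 and 0.229, whereas Foxl2 had 0.0639 and 0.0424 and then 0.0642 and 0.0373. The 10 markers of stroma and theca went from 4.02 and 2.88 in the libraries of 10–30 μm to 1.24 in each of 60–65 μm, 5 of endothelium went from 1.14 and 1.2 to 6.31 and 5.60, of which Pecam1 held 4.70 and 4.19 at 60–65 μm and Cdh5 at most 0.0101 in any library, and 5 of blood stayed at 0.260 to 0.498. The part of these cells in the changes below was not tested.

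Promoter windows are shown first for 5 members. The RNA of 4 of them changed over growth while their windows differed in CpG content. Slc6a9, the most abundant member, has an internal start, within its gene body, that gained methylation. The windows hold 250 bases before and 50 after a RefSeq transcription start (GRCm38.p6), read 5′ to 3′ on the strand of the gene, and capitals mark CpG dinucleotides, the sites at which methylation was measured. RefSeq windows were found for 44 of the 62 members, and none was at hand for Slc6a15, Slc43a3, Slc6a6 or Slc7a5.
Slc36a4, chr9:15709488-15709787, plus strand: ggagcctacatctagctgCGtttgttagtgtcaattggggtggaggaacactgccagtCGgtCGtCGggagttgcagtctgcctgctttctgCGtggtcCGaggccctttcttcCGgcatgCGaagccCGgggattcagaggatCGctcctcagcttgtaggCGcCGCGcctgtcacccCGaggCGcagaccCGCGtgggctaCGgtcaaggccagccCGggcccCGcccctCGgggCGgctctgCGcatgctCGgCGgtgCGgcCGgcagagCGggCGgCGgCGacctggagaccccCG
Slc38a6, chr12:73286598-73286897, plus strand: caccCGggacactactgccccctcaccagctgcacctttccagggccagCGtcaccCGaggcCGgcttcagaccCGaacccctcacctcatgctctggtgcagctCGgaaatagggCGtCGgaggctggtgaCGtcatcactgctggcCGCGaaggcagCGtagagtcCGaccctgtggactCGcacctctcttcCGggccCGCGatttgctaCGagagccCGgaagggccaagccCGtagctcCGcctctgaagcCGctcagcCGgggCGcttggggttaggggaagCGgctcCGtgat
Slc6a20a, chr9:123678783-123679082, minus strand: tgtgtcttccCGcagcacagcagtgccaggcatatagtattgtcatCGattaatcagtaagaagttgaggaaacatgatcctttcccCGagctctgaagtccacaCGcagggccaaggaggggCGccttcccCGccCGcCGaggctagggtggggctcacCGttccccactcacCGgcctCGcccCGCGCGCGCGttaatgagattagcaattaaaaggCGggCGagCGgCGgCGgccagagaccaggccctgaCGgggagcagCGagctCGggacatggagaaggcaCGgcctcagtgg
Slc6a20b, chr9:123632489-123632788, minus strand: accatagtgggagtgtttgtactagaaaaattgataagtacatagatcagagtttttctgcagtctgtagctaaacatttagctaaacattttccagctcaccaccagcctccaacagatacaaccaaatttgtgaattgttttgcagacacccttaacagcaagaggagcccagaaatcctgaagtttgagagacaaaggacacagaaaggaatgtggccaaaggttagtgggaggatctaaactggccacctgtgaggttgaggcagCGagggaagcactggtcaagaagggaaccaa
Slc6a9, upstream start, chr4:117835008-117835307, plus strand: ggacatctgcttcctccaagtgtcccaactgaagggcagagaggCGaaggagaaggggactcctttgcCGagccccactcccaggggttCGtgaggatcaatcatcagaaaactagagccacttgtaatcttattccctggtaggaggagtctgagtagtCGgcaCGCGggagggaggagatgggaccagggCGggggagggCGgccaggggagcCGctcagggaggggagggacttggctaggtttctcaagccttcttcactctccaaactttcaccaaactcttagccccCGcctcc
Slc6a9, internal start, chr4:117849100-117849399, plus strand: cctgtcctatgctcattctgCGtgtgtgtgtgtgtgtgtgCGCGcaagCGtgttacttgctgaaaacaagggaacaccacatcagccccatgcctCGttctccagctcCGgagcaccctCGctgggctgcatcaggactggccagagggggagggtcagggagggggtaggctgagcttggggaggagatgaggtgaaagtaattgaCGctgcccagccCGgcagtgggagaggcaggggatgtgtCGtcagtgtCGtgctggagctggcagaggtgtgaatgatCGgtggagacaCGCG
The window of Slc36a4 holds 32 CpGs, more than 90.5% of the 32851 RefSeq windows of the same length, and that of Slc38a6 holds 26 (more than 83.1%). The neighbouring paralogues Slc6a20a and Slc6a20b differ, with 25 CpGs (more than 81.6%) and 1 CpG (more than 5.4%). Slc6a9 has 10 at its upstream start, 14 at the internal start printed and 8 at another internal start, not printed, beside a median of 7 over all windows. These counts describe the letters of the window only.

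A small set of carriers made up most of the transporter RNA. Of the 62 members, 22 had at least 0.5 RPKM in at least 2 of the 8 libraries of growing oocytes and were tested, and 40 did not. Of those 40, 7 were listed at 0 in all 9 columns and 8 reached 0.1 RPKM in some library, so that 32 stayed under 0.1 RPKM throughout. Just inside the limit were Slc6a15 and Slc36a4, with 0.546 and 0.657 RPKM in their second highest library, and just outside were Slc7a8 (0.468), Slc7a6 (0.462) and Slc7a7 (0.395). Slc6a9, Slc6a7, Slc7a11 and Slc7a2 together gave 62.0% and 60.8% of the summed RPKM of the transporters in the libraries of 10–30 μm, then 52.1% and 53.0% in those of 60–65 μm. The sum itself, without Slc7a6os, lay between 89.3 and 112 RPKM in growing oocytes and was 102 in GV.

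**Figure D1:**
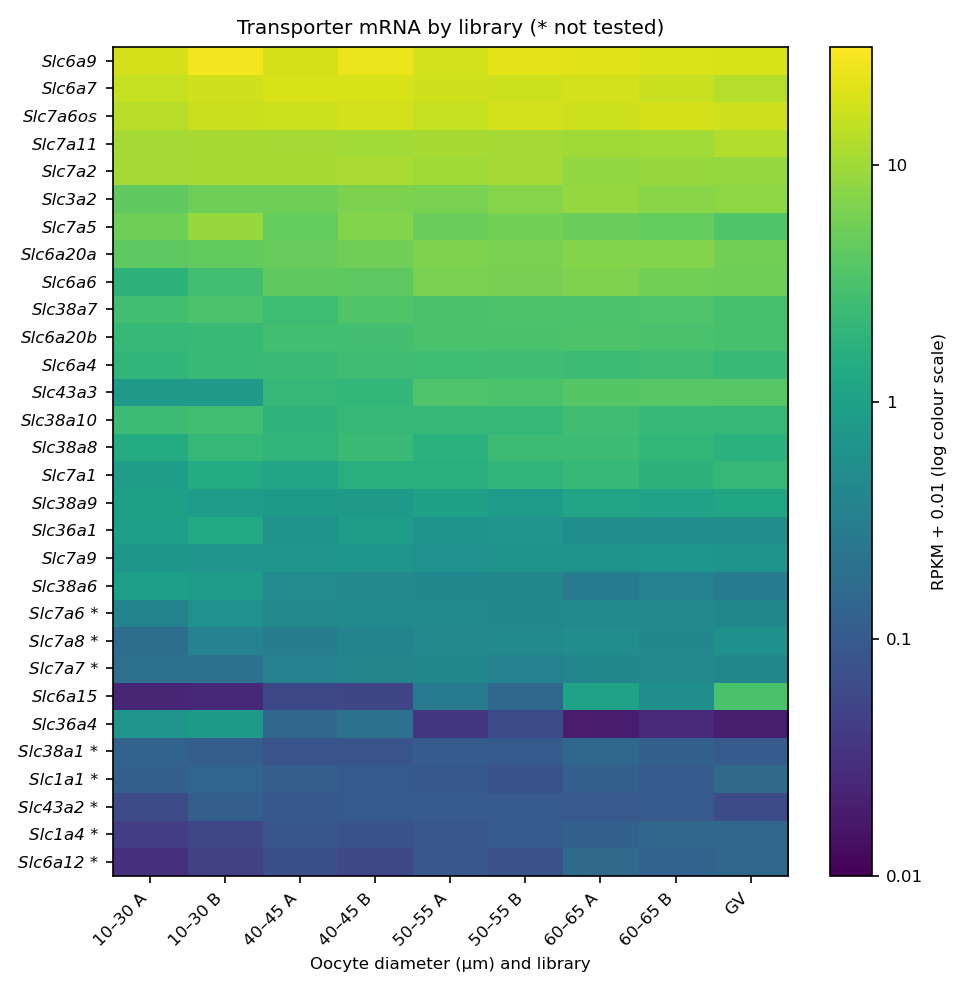
Colour gives RPKM plus 0.01 on a log scale for the 30 members that reached 0.1 RPKM in a library, in rows ordered by their mean, with the 8 growing libraries and GV in columns. An asterisk marks the 8 members that were not tested. The upper rows keep their colour across the columns, whereas Slc6a15 brightens from 0.0138 RPKM to 3.08 in GV and Slc36a4 darkens from 0.790 to 0.00855.

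Between 10–30 and 60–65 μm, 8 of the 22 tested members rose and 4 fell. Leaving out 1 library gave 5 to 9 that rose, with 5 without library A of 60–65 μm, and 2 to 4 that fell, with 2 without library B of 10–30 μm. Slc36a4 and Slc38a6 could not be tested without either library of 10–30 μm, nor Slc6a15 without either of 60–65 μm. This share of 54.5% stands beside 63.2% of all 10518 genes tested, of which 31.8% rose and 31.5% fell, so that the share of members called was near that background. The median log2 fold change of the members was 0.18, beside 0 over all genes tested. The libraries of the end classes did not overlap for 16 of the 22 members, beside 82.1% of all genes tested. All fold changes are on the scale of log2(RPKM + 0.1), which understates the change of low genes, and were tested with limma with Benjamini-Hochberg adjustment over all genes tested.

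**Figure D2:**
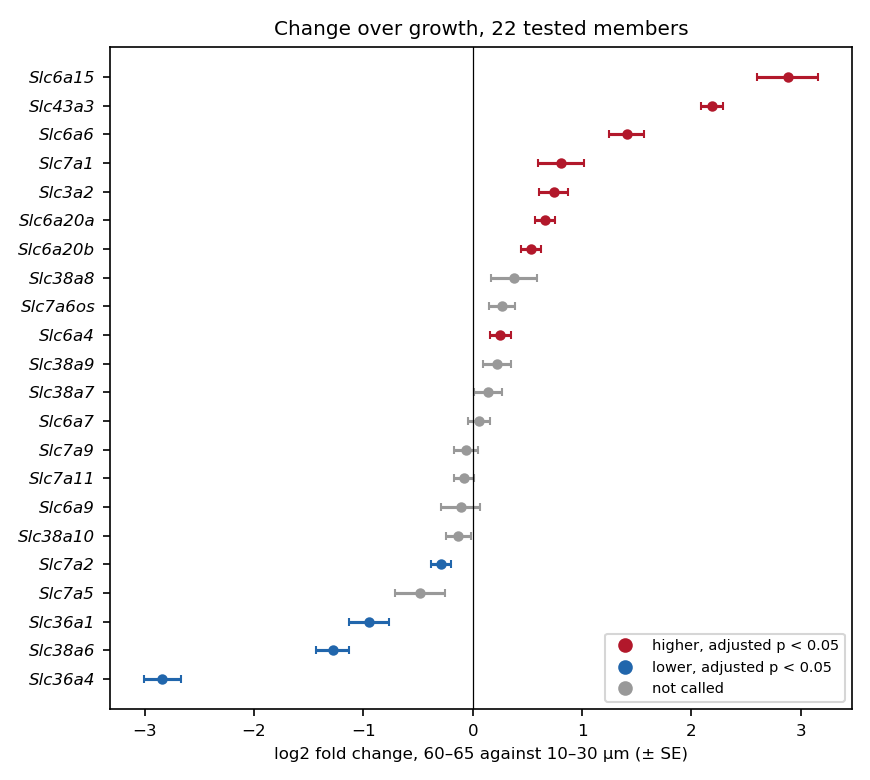
Points give the log2 fold change of the 22 tested members between 60–65 and 10–30 μm, with bars of 1 SE, coloured by whether the adjusted p from limma was under 0.05. The changes run from −2.84 for Slc36a4 to 2.88 for Slc6a15, and 10 members are not called.

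Glycine, proline and other neutral amino acids are carried by 10 of the Slc6 members, of which 5 were tested, 3 rose and none fell. Slc6a15, among those that rose, passed the limit on low values through the class of 60–65 μm alone. Counts by role are small and stand beside 31.8% of all genes tested that rose and 31.5% that fell. Slc6a9 was the most abundant member in growing oocytes. Its libraries A and B gave 18.7 and 27.5 RPKM at 10–30 μm, 18.6 and 24.9 at 40–45 μm, 18.2 and 22.8 at 50–55 μm, then 21.5 and 20.3 at 60–65 μm, with 19.3 in GV. The classes overlapped, the difference over growth was −0.11 ± 0.18 (log2 ± SE, adjusted p = 0.618), and library B lay above A in the first 3 classes but not in the last. Its level exceeded that of 93.4% of the genes tested. Protein-coding genes on the opposite strand, Ccdc24 and B4galt2, overlap its end, and whether the counting kept the strands apart is not stated.

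Slc6a7, a proline carrier best known from the brain, followed with 15.4 and 17.7 RPKM at 10–30 μm, 19.1 and 19.3 at 40–45 μm, 17.8 and 17.1 at 50–55 μm, 18.4 and 15.9 at 60–65 μm and 12.8 in GV. Its end classes overlapped (log2 0.06 ± 0.10, adjusted p = 0.628). The nearest gene on its strand, Cdx1, was at 0 RPKM on average.

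Slc6a15, a carrier of branched-chain amino acids and proline, rose from near 0. It stood at 0.0138 and 0.0155 RPKM at 10–30 μm, 0.0475 and 0.0445 at 40–45 μm, 0.264 and 0.139 at 50–55 μm, 1.03 and 0.546 at 60–65 μm, and 3.08 in GV. Each class lay above the one before it, and the ratio of the mean RPKM of the end classes was 53.7, where the values at 10–30 μm came close to single reads per kilobase of exon. On the fitted scale the rise was 2.88 ± 0.28 (7.36-fold, adjusted p = 5.56e-05). It passed the limit on low values through the class of 60–65 μm alone, so that a difference was built into its being tested, and it could not be tested without either library of that class. Under a pseudocount of 1 the log2 change came to 0.79, below those of Slc43a3 (1.44) and Slc6a6 (1.13), and under 0.01 to 4.94, with the call kept.

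The imino acid carriers Slc6a20a and Slc6a20b lie next to each other on chromosome 9 (123636122 to 123678885 and 123593820 to 123632565, minus strand, GRCm38). Slc6a20a measured 4.29 and 4.62 RPKM at 10–30 μm, then 7.09 and 7 at 60–65 μm, with values of 4.88 to 6.58 between. Slc6a20b measured 2.18 and 2.27 and then 3.36 and 3.12. Neither overlapped between the end classes, and both rose, by 0.66 ± 0.088 (adjusted p = 0.000313) and 0.53 ± 0.090 (adjusted p = 0.00114). As near copies of each other they may share reads, so that the split between them is uncertain. Gm17120, at a mean of 12.157 RPKM, overlaps 1204 bp of Slc6a20a on the opposite strand, and their reads may not have been kept apart. The 5 members of this group that were not tested, Slc6a5, Slc6a14, Slc6a17, Slc6a18 and Slc6a19, had means of at most 0.00571 RPKM.

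Among carriers of osmolytes and related compounds, Slc6a6, the taurine carrier, rose early. It gave 1.83 and 2.78 RPKM at 10–30 μm, 4.47 and 4.31 at 40–45 μm, 6.23 and 6.12 at 50–55 μm, 6.62 and 5.65 at 60–65 μm and 5.25 in GV. The class of 10–30 μm lay below every other library. The rise over growth was 1.41 ± 0.16 (2.65-fold, adjusted p = 0.000118), of which 1.00 ± 0.16 fell between 10–30 and 40–45 μm (adjusted p = 0.00427). Slc6a11, Slc6a13 and the carriers of betaine (Slc6a12) and creatine (Slc6a8) were not tested, and the highest among these 4 was Slc6a12, with 0.0198 and 0.0371 RPKM at 10–30 μm, then 0.150 and 0.121 at 60–65 μm. Of the 3 monoamine carriers, the serotonin carrier Slc6a4 was measurable, at 2.03 and 2.29 RPKM at 10–30 μm, then 2.48 and 2.66 at 60–65 μm. Its rise of 0.25 ± 0.096 passed narrowly (adjusted p = 0.0483) and was kept in 6 of 18 alternative settings, with adjusted p of 0.0285 to 0.199. Leaving out any single library ended this call.

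**Figure D3:**
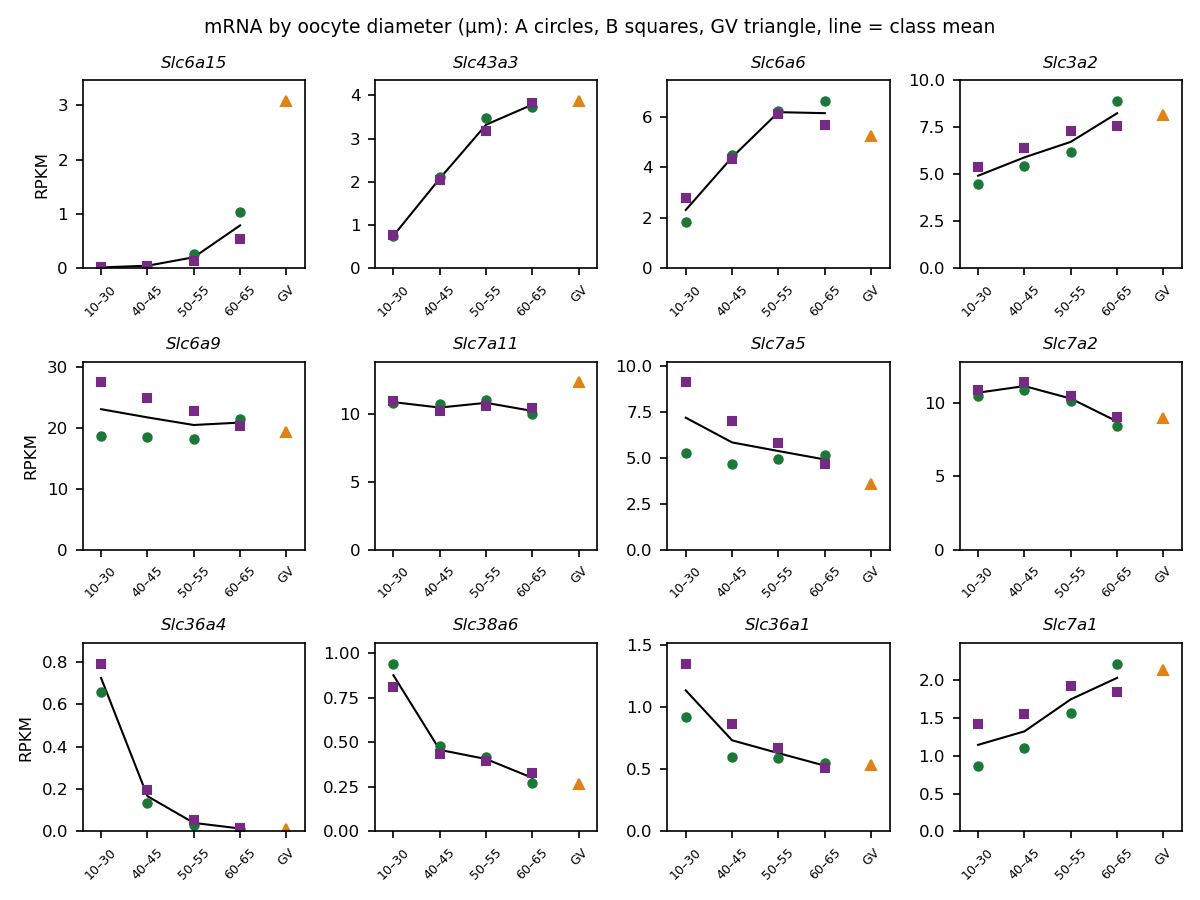
Each panel gives the RPKM of 1 member by diameter class, on a linear axis from 0, with library A as circles, B as squares, GV as a triangle and the line through the class means. Slc6a15 and Slc43a3 climb from class to class and Slc36a4 falls from 0.657 and 0.790 RPKM to 0.00855 and 0.0169, whereas Slc7a11 stays at 10.0 to 11.0 RPKM in the 8 growing libraries.

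The heavy chain Slc3a2 rose, and none of the 3 tested light chains was called. Slc3a2 gave 4.45 and 5.38 RPKM at 10–30 μm, 5.41 and 6.37 at 40–45 μm, 6.16 and 7.27 at 50–55 μm, 8.89 and 7.58 at 60–65 μm and 8.15 in GV. The end classes did not overlap, and the rise was 0.74 ± 0.13 (1.67-fold, adjusted p = 0.00126). The other heavy chain, Slc3a1, was not tested and stayed at or under 0.0480 RPKM.

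Of 10 light chains, 3 were tested and none was called. Slc7a11, which exchanges cystine for glutamate and so feeds the making of glutathione, held 10.8 and 10.9 RPKM at 10–30 μm, then 10.0 and 10.4 at 60–65 μm (log2 −0.08 ± 0.094, adjusted p = 0.476), with 12.3 in GV. Slc7a5, which carries large neutral amino acids, had 5.28 and 9.13 RPKM at 10–30 μm, 4.70 and 7.01 at 40–45 μm, 4.94 and 5.83 at 50–55 μm, 5.19 and 4.66 at 60–65 μm and 3.57 in GV. The protein-coding gene Gm20388, at a mean of 1.448 RPKM, overlaps the whole of Slc7a5 on the opposite strand, and their reads may not have been kept apart. The difference of Slc7a5 over growth of −0.48 ± 0.23 was not called (adjusted p = 0.1), although the end classes did not overlap, and without library A of 10–30 μm it became −0.85 and was called (adjusted p = 0.0102). Slc7a9, the partner of Slc3a1, lay at 0.577 to 0.698 RPKM in every growing library. The light chains just under the limit were Slc7a6 (0.364 to 0.573), Slc7a7 (0.183 and 0.2 RPKM at 10–30 μm, 0.395 and 0.441 at 60–65 μm) and Slc7a8 (0.175 and 0.346, then 0.514 and 0.415).

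The cationic amino acid carriers, which bring in arginine and lysine, went opposite ways. Slc7a1 had 0.872 and 1.42 RPKM at 10–30 μm, 1.10 and 1.55 at 40–45 μm, 1.57 and 1.93 at 50–55 μm, then 2.22 and 1.85 at 60–65 μm. It rose by 0.81 ± 0.21 (adjusted p = 0.00969), a call lost without library A of 10–30 μm (0.51, adjusted p = 0.0674) or library A of 60–65 μm (0.70, adjusted p = 0.0694). Slc7a2 was the more abundant, with 10.5 and 10.9 RPKM at 10–30 μm, 10.9 and 11.4 at 40–45 μm, 10.1 and 10.5 at 50–55 μm, then 8.42 and 9.06 at 60–65 μm. It fell by 0.29 ± 0.090 on the log2 scale (adjusted p = 0.0219), and this call was lost without library A (adjusted p = 0.169) or B (adjusted p = 0.0508) of 60–65 μm. Slc7a3, Slc7a4 and Slc7a14 were not tested, with means of 0.00101, 0.00937 and 0.0273 RPKM.

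Of the 4 proton-coupled Slc36 members, 2 were tested and both fell, Slc36a4 after passing the limit on low values through the class where it was high. Slc36a4, a carrier with high affinity for proline and tryptophan, gave 0.657 and 0.790 RPKM at 10–30 μm, 0.134 and 0.197 at 40–45 μm, 0.0275 and 0.0512 at 50–55 μm, then 0.00855 and 0.0169 at 60–65 μm, with 0.00997 in GV. No class overlapped the next, and the mean RPKM of 10–30 μm was 56.9 times that of 60–65 μm, where the values came close to single reads per kilobase of exon. The fitted fall was 2.84 on the log2 scale with an SE of 0.17 (7.17-fold, adjusted p = 7.92e-06). With a pseudocount of 1 it was −0.75 and with 0.01 it was −5.01, and the gene could not be tested without either library of 10–30 μm, the class that carried it past the limit on low values. Slc36a1, which takes amino acids out of lysosomes, had 0.923 and 1.35 RPKM at 10–30 μm, 0.6 and 0.867 at 40–45 μm, 0.591 and 0.669 at 50–55 μm, then 0.549 and 0.509 at 60–65 μm. It fell by 0.95 ± 0.18 on the log2 scale (1.93-fold, adjusted p = 0.00203). Slc36a2 and Slc36a3 were listed at 0 in every column.

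In the Slc38 family, 5 of 11 members were tested, and 1 fell. Slc38a6, a less studied member of the family, had 0.941 and 0.813 RPKM at 10–30 μm, 0.478 and 0.437 at 40–45 μm, 0.416 and 0.396 at 50–55 μm, then 0.270 and 0.330 at 60–65 μm. Every class lay below the one before it, and the fall was 1.28 on the log2 scale with an SE of 0.15 (2.43-fold, adjusted p = 0.000128). It too passed the limit through the class of 10–30 μm. Slc38a9, the lysosomal arginine sensor that acts on mTORC1, stayed between 0.779 and 1.11 RPKM in growing oocytes, and Slc38a7, which exports glutamine from lysosomes, stayed between 2.59 and 3.49 (log2 0.14 ± 0.13, adjusted p = 0.362). Slc38a8 (1.41 to 2.49) and Slc38a10 (1.87 to 2.79) were not called.

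The classical systems for small neutral amino acids were low and not tested. System A is formed by Slc38a1, Slc38a2 and Slc38a4, with means of 0.0999, 0.0444 and 0.0190 RPKM. Slc38a2 had 0.0979 and 0.0925 RPKM at 10–30 μm and 0.0204 to 0.0329 in the 6 larger libraries, without overlap, and Slc38a1 had 0.0698 to 0.139 in every growing library. System N was lower still, with Slc38a3 at 0 in 4 of the 8 growing libraries and at most 0.00566 RPKM, and Slc38a5 at most 0.00891. Slc38a3 is known in the follicle from the granulosa cells around the oocyte. The 7 Slc1 members, which carry glutamate, aspartate, serine and alanine, did not pass the limit either, and the highest mean among them was that of the glutamate carrier Slc1a1, at 0.0967 RPKM.

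Slc43a3 climbed from class to class. It lies in a family of amino acid carriers but is known itself as a carrier of purine bases. It gave 0.746 and 0.758 RPKM at 10–30 μm, 2.11 and 2.04 at 40–45 μm, 3.47 and 3.17 at 50–55 μm, 3.74 and 3.83 at 60–65 μm and 3.87 in GV. Duplicates lay close together and no class overlapped another. It rose by 2.19 ± 0.099 over growth (4.57-fold, adjusted p = 6e-06), and the call was kept in all 18 alternative settings. Slc43a1 and Slc43a2 had means of 0.0322 and 0.0855 RPKM. Slc7a6os, which is no carrier, had 13.4 and 16.8 RPKM at 10–30 μm, then 17.2 and 18.9 at 60–65 μm and was not called (log2 0.27 ± 0.12, adjusted p = 0.0791), but it was without library B of 10–30 μm (0.37, adjusted p = 0.0368).

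Comparing consecutive classes placed only some of these changes. Slc6a15, Slc3a2, Slc6a20a, Slc7a1, Slc7a2 and Slc36a1 were called over growth but in no single step. Between 10–30 and 40–45 μm, 4 members rose (Slc43a3, Slc6a6, Slc6a20b and Slc6a4) and 2 fell (Slc36a4 and Slc38a6), 27.3% of the 22 beside 23% of all genes tested (13.2% higher and 9.84% lower). Both that fell had passed the limit on low values through the class of 10–30 μm, so that a fall was built into their being tested. Slc43a3 rose by 1.42 ± 0.099 (adjusted p = 0.000557), Slc6a20b by 0.38 ± 0.090 (adjusted p = 0.0207) and Slc6a4 by 0.31 ± 0.096 (adjusted p = 0.0495). Slc36a4 fell by 1.59 on the log2 scale (adjusted p = 0.00102) and Slc38a6 by 0.75 (adjusted p = 0.00953). The call of Slc6a20b was lost without library A of 10–30 μm (adjusted p = 0.0541) or either library of 40–45 μm (adjusted p = 0.0869 and 0.0706), and that of Slc6a4 without any 1 of the 8 libraries. The split over all genes, 1386 higher and 1035 lower, turned to 1088 and 1521 when RPKM was used as deposited. With the letters A and B as a replicate block in limma, Slc7a6os (adjusted p = 0.0309), Slc6a20a (adjusted p = 0.0409) and Slc36a1 (adjusted p = 0.0285) were also called.

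From 40–45 to 50–55 μm, Slc43a3 rose by a further 0.63 ± 0.099 (adjusted p = 0.0159) and Slc36a4 fell by a further 0.94 on the log2 scale (adjusted p = 0.0190), 9.09% of the members beside 8.75% of all genes tested (5.65% higher and 3.1% lower). This comparison rested on single libraries, since without library B of 40–45 μm or library A of 50–55 μm no gene of the table was called, and the adjusted p of Slc43a3 became 0.105 and 0.159 and that of Slc36a4 0.114 and 0.161. The call of Slc36a4 was also lost with a pseudocount of 1 (adjusted p = 0.0546). With the letters as a replicate block in limma, Slc6a15 was also called (1.01, adjusted p = 0.0186). From 50–55 to 60–65 μm no member was called by limma, beside 0% of all genes tested, and 3 members had an unadjusted p under 0.05. These were Slc6a15 (log2 1.51 ± 0.28, adjusted p = 0.139), Slc7a2 (−0.27 ± 0.090, adjusted p = 0.251) and Slc38a6 (−0.37 ± 0.15, adjusted p = 0.317).

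The GV column has no replicate and is given as a ratio to the mean of 60–65 μm without a test. Slc6a15 stood out, with a log2 ratio of 1.93 and 3.91 times the mean RPKM of 60–65 μm. The other named members lay between −0.41 (Slc7a5) and 0.38 (Slc1a1, at 0.154 RPKM). Slc6a7 was at −0.38 and Slc7a11 at 0.30, both outside the pair of libraries of 60–65 μm, whereas Slc3a2 (0.03), Slc43a3 (0.08) and Slc36a4 (−0.03) were near them.

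Genes that act with the transporters were taken from 4 lists. Of 28 tested genes that report amino acids to mTORC1, 6 rose and 13 fell over growth (median log2 −0.30, beside 0 over all genes tested). The counts of this list and of the next 3 stand beside 31.8% of all genes tested that rose and 31.5% that fell. In 3 of these lists 1 gene that fell (Wdr59, Pycr1 and Slc15a1) had passed the limit on low values through the class of 10–30 μm alone, so that its fall was built in. Aldh18a1 and Slc12a8, which rose, reached the limit only in libraries of 50–55 and 60–65 μm. Asns, which fell, reached it only in those of 10–30 and 40–45 μm. The limit thus favoured the direction of these genes as well. The Rag GTPases Rraga and Rragc rose, from 6.29 and 8.24 RPKM to 19.8 and 13.0 (1.15 ± 0.20, adjusted p = 0.00112) and from 9.69 and 11.7 to 22.9 and 21.4 (1.05 ± 0.098, adjusted p = 4.58e-05). The sestrin Sesn3, of a family that restrains mTORC1, fell by 0.97 on the log2 scale (adjusted p = 0.000135), and Mtor itself was not called (0.00 ± 0.18). These genes do not stand for the list. Lamtor2 (−0.82, adjusted p = 0.000486) and Rheb (−0.53, adjusted p = 0.00429) fell, and Tsc1 (0.82, adjusted p = 0.000125) rose. The activity of mTORC1 was not measured. Of 13 tested genes of the amino acid response, in which the kinase GCN2 and the factor ATF4 answer a lack of amino acids, 8 rose and 3 fell (median 0.37). Atf4 went from 16.9 and 16.4 RPKM to 34.1 and 32.7 (1.00 ± 0.11, adjusted p = 9.84e-05) and Eif2ak4, which encodes GCN2, from 1.55 and 1.99 to 4.06 and 3.90. In the other direction, the asparagine synthetase Asns, a known target of ATF4, fell by 1.35 on the log2 scale (adjusted p = 0.000114).

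For cell volume and osmolytes, 11 of 16 tested genes rose and 1 fell (median 0.56). The volume-regulated channel subunit Lrrc8e went from 5.72 and 6.74 RPKM to 13.9 and 13.6 (1.14 ± 0.090, adjusted p = 2.14e-05), and Cdo1, which makes the precursor of taurine, from 41.3 and 40.9 to 69.3 and 62.1 (0.68 ± 0.13, adjusted p = 0.00249). The kinase Oxsr1 fell by 1.24 on the log2 scale (adjusted p = 2.33e-05). Of 10 tested genes of other carriers outside the 7 families, mostly of amino acids and peptides, 5 rose and 3 fell (median 0.39). One that fell, Clcn7, is a lysosomal chloride and proton exchanger (log2 −0.44, adjusted p = 0.00696). Among the others were the lysosomal peptide and histidine carrier Slc15a4, which rose from 3.29 and 3.44 RPKM to 10.5 and 9.34 (1.54 ± 0.14, adjusted p = 4.54e-05), and the lysosomal carrier Slc17a5, which fell by 1.75 on the log2 scale (adjusted p = 1.18e-05).

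Gene starts of the transporters had little methylation where they were measured, with 3 exceptions in the PBAT library. RRBS reads the ends of short fragments cut at CCGG and so samples CpG-rich sequence, and PBAT samples the whole genome, and both give the percent of calls at a CpG cytosine that were methylated. Within 500 bp of the start, 27 to 34 members had at least 5 positions of at least 5 reads in an RRBS library, with medians from 0.0706% to 0.615% and no member above 10.8%. In PBAT, 53 members were measured, with a median of 3.58%, and 3 reached 25% methylation (5.66%, beside 4.96% of 17624 genes measured). At a minimum of 10 reads 1 of 26 did (3.85%, beside 2.48%). These were Slc38a4 (65.1% over 26 positions), an imprinted gene expressed from the paternal copy, Slc7a15 (57.4% over 11) and Slc3a1 (38.2% over 11), all with RNA at or under 0.0480 RPKM. Their starts had at most 2 positions in an RRBS library, so that the smaller classes were not measured there.

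In the promoter windows printed above, Slc36a4 had 1.12% and 0.69% at 40–45 μm, 0.41% and 0.00% at 50–55 μm, then 0.24% and 1.67% at 60–65 μm, over 21 to 35 positions, and Slc38a6 had 1.64% and 1.10%, 0.55% and 0.00%, and 0.37% and 0.38%, over 16 to 23 positions. Both windows thus stayed under 2% in RRBS from 40–45 μm on, and the smallest class, before the first fall of the RNA, was not measured. The internal start of Slc6a9 printed above, which lies inside the interval taken as its gene body, gained methylation. It had 2.50% and 0.00% at 40–45 μm, 16.1% and 21.9% at 50–55 μm, then 54.3% and 54.9% at 60–65 μm, over 5 to 8 positions and 316 to 720 calls a library, and 44.2% in PBAT, with no overlap between the classes, while the RNA of the gene as a whole did not differ beyond the spread of the libraries. At its upstream start PBAT gave 0.00% over 2 positions and 12 calls, with no RRBS position. The other internal start had 1 position in 1 RRBS library and 78.1% in PBAT over 4 positions and 31 calls. With 2 libraries in each class a permutation test cannot go below p = 0.333, so that methylation is described without tests.

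Gene bodies were taken from 2 kb inside the start to the end of genes of at least 4 kb. Those of the expressed members that were measured gained methylation, as did those of most tested genes of the table. Of the 11 tested members measured in all 4 RRBS libraries of 40–45 and 60–65 μm, 11 had both libraries of 60–65 μm above both of 40–45 μm, beside 89.7% of the tested genes of the table. Among the members that were not tested 10 of 19 did, beside 45.1%, and over both sets 21 of 30 did, beside 67.6% of all genes measured. The median gain was 34.2 percentage points in the first set, beside 28.2 over all tested genes, and 2.2 in the second, beside 0.854. Slc38a7 went from 8.34% and 5.8% at 40–45 μm through 35.7% and 47.0% to 61.8% and 66.5% at 60–65 μm, and Slc6a6 from 4.97% and 1.78% through 29.4% and 26.6% to 46.9% in each library. Slc6a9 had 1.11% and 0.868%, then 4.92% and 3.95%, then 22.3% and 18.8%, and 41.8% over 325 positions in PBAT. The libraries of 50–55 μm differed, in that the bodies of genes that were not tested had a median of 6.54% in B beside 1.96% in A. This gap depended on the read minimum. At 3 reads the medians were 8.21% in B and 7.78% in A, and at 10 reads 4.35% and 1.64%, and that of the members in A moved from 8.3% at 5 reads to 16.3% at 3 reads. Library B covered the fewest positions (804044), so that values at 50–55 μm are given per library and no count rests on them.

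**Figure D4:**
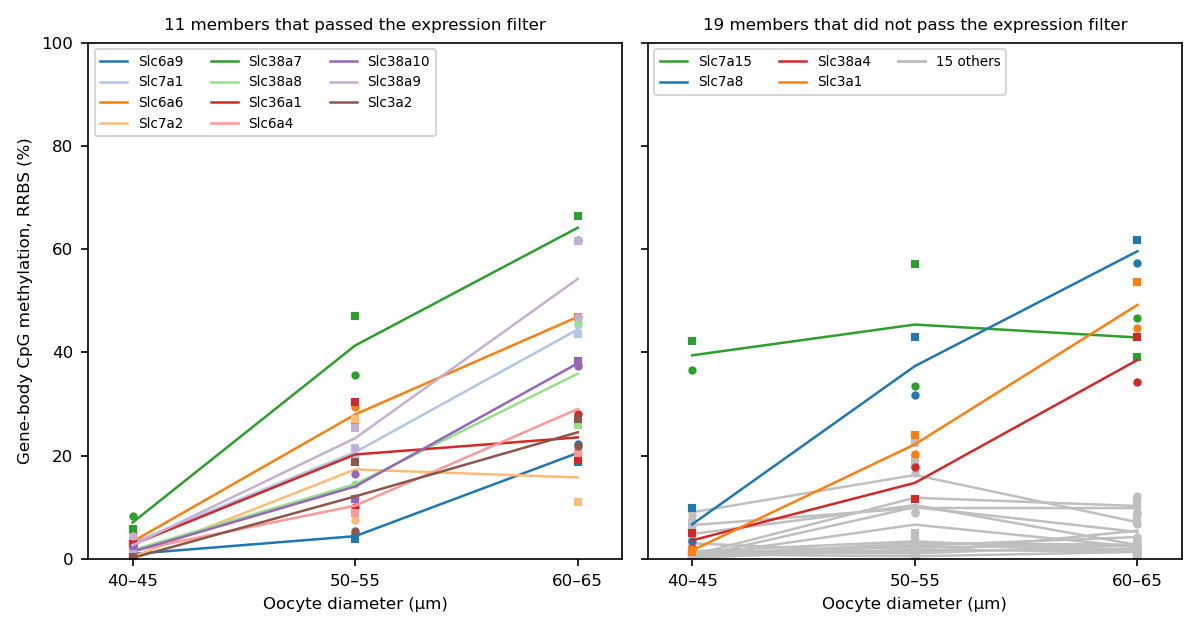
Lines join the class means of gene-body methylation in RRBS, with library A as circles and B as squares, for members measured in all 4 libraries of 40–45 and 60–65 μm. The 11 members that passed the expression limit rise, Slc38a7 to 61.8% and 66.5%, whereas among the 19 others Slc7a8, Slc3a1 and Slc38a4 rise, Slc7a15 is at 36.6% and 42.3% already at 40–45 μm, and the 15 drawn in grey are at or under 12.3% at 60–65 μm and at or under 23.4% at 50–55 μm, 7 of them with both libraries of 60–65 μm above both of 40–45 μm.

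Some members with little or no RNA also had methylated bodies. Slc3a1, at 0.0371 and 0.0431 RPKM at 60–65 μm, went from 1.95% and 1.38% to 44.7% and 53.7% over 17 or 18 positions. Slc38a4 went from 2.16% and 5.09% to 34.2% and 42.9% over 14 to 21 positions, whereas PBAT gave 16.8% over 273. Slc7a8, just under the expression limit, went from 3.56% and 9.89% to 57.4% and 61.8%. Slc7a15, at or near 0 RPKM, was methylated from the smallest class measured on, with 36.6% and 42.3% at 40–45 μm, then 46.6% and 39.2% at 60–65 μm over 10 to 17 positions, whereas PBAT gave 23.4% over 218.

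In the PBAT library of 60–65 μm, which covers more of each body, the 22 tested members had a median of 49.3% (13.3% to 71.2%), beside 50.6% over the 8739 tested genes measured, and 38 members that were not tested had a median of 8.96%, beside 9.44%. Across the 60 members measured, body methylation and RNA at 60–65 μm were ordered alike, with a Spearman's rho of 0.71 (Pearson's r of 0.71), beside 0.65 over 17080 genes. These points share 1 methylation library and are given as a description. Some members expressed at 60–65 μm had little methylation, namely Slc3a2 (14.3% over 133 positions at 8.24 RPKM), Slc7a9 (16.5%) and Slc6a15 (19.0% over 24 positions). RRBS gave the body of Slc3a2 21.9% and 27.2% at 60–65 μm, over 24 and 19 positions. Slc36a4, tested for its level at 10–30 μm and at 0.0127 RPKM here, had 13.3%. Some members with little RNA had much, namely Slc3a1 (58.4%), Slc6a8 (56.1% over 31 positions) and Slc7a8 (53.9%).

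**Figure D5:**
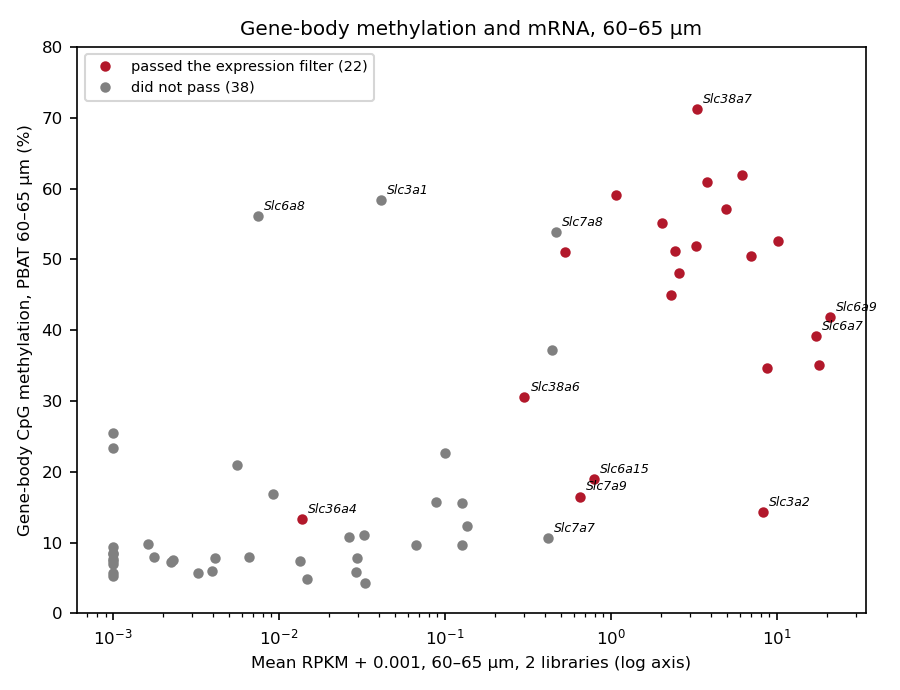
Each point is 1 of 60 members, with the mean RPKM of both libraries of 60–65 μm plus 0.001 on a log axis and gene-body methylation in the PBAT library of that class in percent, in red for the 22 tested members. Points with RNA above 1 RPKM lie between 34.7% and 71.2%, apart from Slc3a2 at 14.3%, and those under 0.1 RPKM lie at or under 25.5%, apart from Slc6a8 at 56.1% and Slc3a1 at 58.4%.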

How the data were processed

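RNA-seq values were deposited by the authors as RPKM per gene, 1 column a library. Per the labels and the study's methods, reads were trimmed (Trim Galore 0.2.8) and aligned to GRCm38 with TopHat 2.0.9. Cufflinks and SeqMonk are both named, and which of them made the table is not given in the sources used here. For methylation, the authors deposited for each cytosine the percent methylated and the counts of methylated and unmethylated calls, made with Bismark (0.14.0 for RRBS, with Trim Galore 0.3.5, and 0.10.0 for PBAT, where duplicates were removed).

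Genes with at least 0.5 RPKM in at least 2 of the 8 growing libraries were scaled by a trimmed mean over the genes tested (30% of ratios, 5% of levels), put on log2(RPKM + 0.1) and tested with limma 3.58.1 (R 4.3.3, variance trend) over all 8 libraries, with Benjamini-Hochberg adjustment and a threshold of 0.05. The trimmed mean was first taken over all rows, and this was changed after the members' calls had been seen. GV was not tested. Methylation of a start, window or body is the unweighted mean of the percents at its positions of at least 5 reads. At least 5 positions were needed at a gene start and 10 in a body. Python 3.11.15 with pandas 2.3.3 was used.

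Members and gene lists were chosen with earlier results of these data known. Members given in full were the 12 with the highest mean RPKM, the up to 8 largest rises and 8 largest falls called over growth, the up to 3 largest called changes each way in a step, and 7 transporters known from textbooks (Slc6a9, Slc6a6, Slc38a3, Slc7a5, Slc3a2, Slc7a11 and Slc1a1), wherever they fell. Other members are given by range or count. Those whose values are printed beyond this (Slc38a2, Slc7a7, Slc7a8, Slc6a12 and the methylation of Slc3a1, Slc38a4, Slc7a15, Slc6a8 and Slc7a9) were chosen after their values were seen. The same holds for step values of members that were not called, limited to an unadjusted p under 0.05. Alternatives were other pseudocounts, filters, scalings, designs and read minimums, and leaving out each library. Total read numbers are not in the table, so that the depth was read from the steps between low values, and counting intervals were not computed. Values of single genes that are withheld are not reported here.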

Additional observations from a re-analysis of the deposited data

How the results depend on the processing

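Over growth, 8 members rose and 4 fell; without a filter 14 rose, with a filter of 1 RPKM 1 fell, and leaving out 1 library gave 5 to 9 and 2 to 4. For 40–45 against 10–30 μm (4 and 2), 4 fell without a filter and 0 at 1 RPKM, 2 rose when the 2 classes were fitted alone, and leaving out 1 library gave 2 to 4 and 0 to 3. For 50–55 against 40–45 μm (1 and 1), 0 fell with a pseudocount of 1, at 1 RPKM and with the 2 classes alone, 2 rose with a pseudocount of 0.01, and also with the 2 classes alone, and leaving out 1 library gave 0 to 2 and 0 to 1. For 60–65 against 50–55 μm the count was 0 without any 1 library. At 1 RPKM Slc36a1, Slc36a4 and Slc38a6 did not pass the filter and so were not tested. Nor was Slc36a4 at 50–55 μm with the 2 classes alone. Causes of the other differences were not tested.

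The trimmed mean over all rows, the first choice, gave 6 and 2 at 40–45 μm, where Slc6a7 (0.34, adjusted p = 0.0426) and Slc6a20a (0.33, adjusted p = 0.0291) were also called. Over growth, leaving out 1 library took Slc6a7 from −0.03 (60–65 A) and −0.01 (10–30 A) to 0.17 (60–65 B), and Slc6a9 from −0.36 (10–30 A) to 0.10 (10–30 B), with no call.

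Over all genes, 1386 and 1035 calls at 40–45 μm became 591 and 371 with the 2 classes alone, and 571 to 1546 and 290 to 1375 leaving out 1 library. The 594 and 326 calls at 50–55 μm became 384 and 124 without a filter, and 0 to 904 and 0 to 766 leaving out 1 library. At 60–65 μm a pseudocount of 1 gave 8 higher.

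With the letters A and B as a replicate block, 2 members rose at 50–55 μm and 1 (Slc6a15) at 60–65 μm, and all genes gave 1065 and 786, and 152 and 78. The block also called Slc7a5 (−0.48, adjusted p = 0.0341) and Slc7a6os (0.27, adjusted p = 0.0232) over growth, and Slc7a6os (adjusted p = 0.0309), Slc6a20a (0.0409) and Slc36a1 (0.0285) at 40–45 μm. The differences between B and A correlated at 0.588 to 0.669 among the 3 smaller classes and at −0.227 to 0.113 between these and 60–65 μm. The letters were therefore not taken as pairs in the fit of all libraries. That reason does not hold among the 3 smaller classes alone, where the calls depend on this choice.

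At a minimum of 10 reads the PBAT medians of the members were 2.38% at starts and 11.3% in bodies, against 3.58% and 15.7%. RRBS covered the bodies of 30 members in all 4 libraries used.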
